A study of Homo sapiens with 3 samples.

Results

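The genes described here are 6 with long bodies and many BRG1 peaks inside them, *KCNMA1*, *CAST*, *TENM2*, *ATXN1*, *EXT1* and *SBF2*. They were chosen by the deposited peaks themselves, for 9 or more rows of the overlap list lying nearest to each. Of the 19974 protein-coding genes on chromosomes 1 to 22 and X, 56 reach that count, and these 6 are a named selection from them; the count alone does not single them out. Their peak counts and densities are therefore descriptions and carry no test. The data are 2 BRG1 ChIP-seq libraries (replicates 1 and 2) and 1 input library from wild-type 12Z cells, an established human endometriotic epithelial line. The labels do not say that the replicates were separate cultures, so their spread may be technical. All 3 libraries are labelled wild-type and both ChIP libraries used the same antibody. No library with BRG1 removed was analysed here. A peak in the overlap list, which the authors made for the whole series, is called a shared peak.

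BRG1 is one of the alternative ATPases of SWI/SNF, a complex that slides and evicts nucleosomes and that is found at promoters and, in many cell types, mostly at enhancers away from them. Long genes can hold many such enhancers in their introns, and an enhancer inside one gene may act on another. A peak inside a gene therefore does not name the gene it acts on. The 6 genes encode unrelated proteins. *KCNMA1* encodes the pore-forming subunit of the BK channel, a potassium channel opened by calcium and voltage, and *TENM2* encodes teneurin-2, a large transmembrane adhesion protein that binds latrophilins. *CAST* encodes calpastatin, the inhibitor of the calpain proteases, and *SBF2* a catalytically inactive myotubularin with a DENN domain, which partners the lipid phosphatase MTMR2. *ATXN1* encodes ataxin-1, a nuclear protein that binds the repressor CIC, and *EXT1* a Golgi glycosyltransferase that extends heparan sulfate chains together with EXT2.

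Of 14 RefSeq start windows listed for 5 of the 6 genes, 1 lay under a shared peak, against 0.787% of all 34961 windows listed. With 1 window covered, in genes chosen for their shared peaks, this is no separate result. The windows are of build GRCh38.p14, a patch release of the same chromosomes as the authors' GRCh38.p12. A window runs from 250 bases before to 50 after an annotated start. The covered window belongs to the inner start of *KCNMA1* on the minus strand and lies whole within a shared peak at 77350477 to 77351938 on chromosome 10. Divergent from it, under the same peak, starts the antisense RNA *KCNMA1-AS3*. The window of the outer *KCNMA1* start, 72.1 kb from the nearest shared peak, is shown for contrast. A peak of replicate 2 alone (77637618 to 77637751, fold 3.78) ended just short of that window. Also shown are 2 windows at or beside shared peaks in *SBF2*. One of these belongs to LOC101928008, a long non-coding RNA inside *SBF2* whose start lies under a shared peak, and the other to an *SBF2* start 0.780 kb from the edge of one. Capitals mark TGANTCA and GGAATG, the TEAD core, each searched on both strands. TGANTCA, with any base at N, is a looser form of the AP-1 consensus TGA(G/C)TCA.
KCNMA1 inner start (chr10:77350712-77351011, minus strand): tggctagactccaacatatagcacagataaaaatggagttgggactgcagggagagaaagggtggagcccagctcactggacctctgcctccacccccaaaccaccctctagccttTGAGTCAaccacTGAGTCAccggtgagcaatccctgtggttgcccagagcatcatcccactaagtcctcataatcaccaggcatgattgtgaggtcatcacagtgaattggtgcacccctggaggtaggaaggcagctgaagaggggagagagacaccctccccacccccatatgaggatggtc
KCNMA1 outer start (chr10:77637759-77638058, minus strand): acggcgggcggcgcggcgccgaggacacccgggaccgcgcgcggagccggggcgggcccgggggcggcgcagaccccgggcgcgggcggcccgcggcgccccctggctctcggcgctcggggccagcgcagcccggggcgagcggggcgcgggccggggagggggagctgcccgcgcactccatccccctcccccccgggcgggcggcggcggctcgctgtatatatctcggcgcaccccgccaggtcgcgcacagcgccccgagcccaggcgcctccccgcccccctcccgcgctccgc
LOC101928008 start (chr11:9838892-9839191, plus strand): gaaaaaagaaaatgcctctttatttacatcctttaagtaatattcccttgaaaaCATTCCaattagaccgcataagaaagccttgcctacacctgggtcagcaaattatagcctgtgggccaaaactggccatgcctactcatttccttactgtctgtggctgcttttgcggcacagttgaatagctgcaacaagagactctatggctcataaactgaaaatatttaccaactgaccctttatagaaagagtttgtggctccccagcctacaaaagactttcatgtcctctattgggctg
SBF2 start nearest a peak (chr11:10303788-10304087, minus strand): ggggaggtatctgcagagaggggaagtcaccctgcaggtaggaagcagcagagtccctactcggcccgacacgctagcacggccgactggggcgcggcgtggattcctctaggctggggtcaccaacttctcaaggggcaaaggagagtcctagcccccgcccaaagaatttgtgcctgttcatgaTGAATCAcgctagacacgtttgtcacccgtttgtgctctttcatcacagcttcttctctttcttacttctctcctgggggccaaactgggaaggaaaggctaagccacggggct

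The inner *KCNMA1* window held 2 copies of TGANTCA, each reading TGAGTCA, and the overlapping *KCNMA1-AS3* window held the same pair on the other strand. The outer *KCNMA1* window held neither motif. Its GC content was 85.7%, above that of 99.8% of all windows, whereas the inner window had 54.7%, above 40.2% of them. The LOC101928008 window held 1 GGAATG, read as CATTCC on the strand printed, and no TGANTCA. The *SBF2* window held 1 TGANTCA, reading TGAATCA and so outside the stricter consensus, and was not itself under a peak in either replicate. Over all windows 7.68% held TGANTCA and 14.0% held GGAATG. Among the 275 windows under a shared peak the shares were 33.1% and 26.9%. These are matches of letters in fixed windows, not sites of binding.

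Inside the 6 bodies lay 60 shared peaks, 113 peaks of replicate 1 and 70 of replicate 2. Their bodies summed to 4.17 Mb, which gives 1.44 shared peaks per 100 kb over all 6 together and a median of 1.54 over the genes. Nearest to them were 67 shared peaks, so 7 lay outside the bodies. The rule of 9 or more nearest peaks was met by 56 protein-coding genes, 0.28% of those on the chromosomes used, and 36 of the 56 had most of these peaks in stretches of 1 Mb or more without a coding gene. Of the 705 genes at least as long as *EXT1*, the shortest of the 6 at 317.3 kb, 2.13% (15) met the rule, and these 15 include all 6. At least 1 shared peak lay inside 203 of the 705, or 28.8%. The other 699 long genes held 0.102 shared peaks per 100 kb of their summed length, and their median count was 0.

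**Figure D1:**
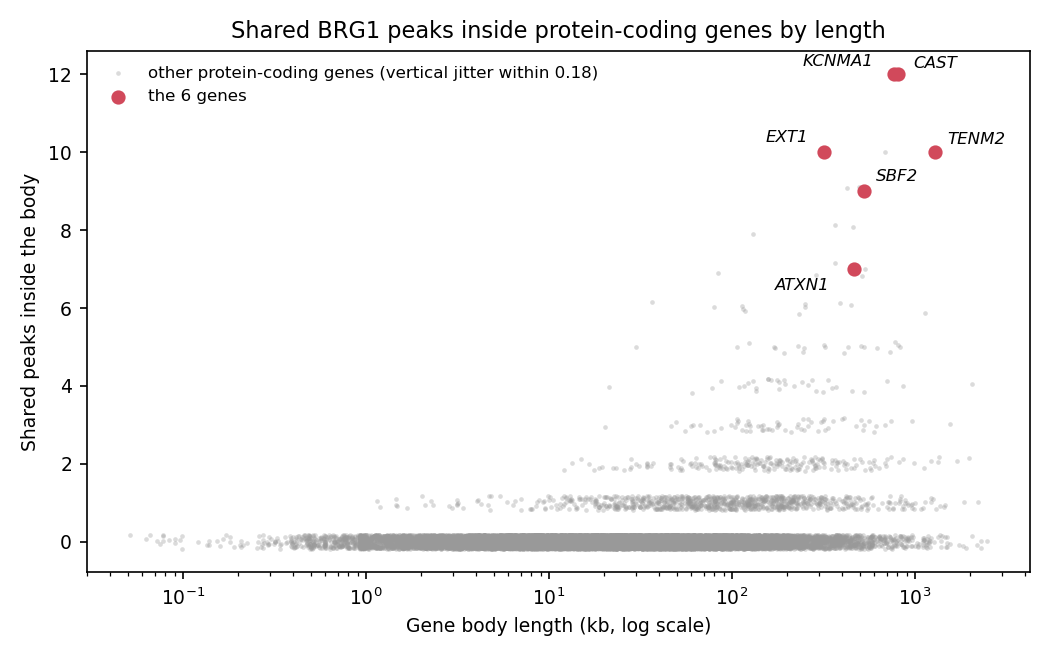
Shared BRG1 peaks inside the body (vertical axis, count) of each protein-coding gene against body length (horizontal axis, kb, log scale). The 6 genes are red and the rest grey, the grey points spread slightly along the vertical axis to separate them; *KCNMA1* and *CAST*, with 12 peaks each, lie above all others.

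*EXT1* was the most densely occupied. Its body of 317.3 kb held 10 shared peaks, or 3.15 per 100 kb, with 6.30 peaks per 100 kb in replicate 1 and 3.47 in replicate 2. Among the 705 long genes this was rank 1 by shared peaks per 100 kb. *TENM2*, the longest at 1285.1 kb, was the sparsest of the 6, with 0.778 shared peaks, 1.56 replicate 1 peaks and 1.01 replicate 2 peaks per 100 kb, and ranked 32. *EXT1* was highest and *TENM2* lowest among the 6 in all 3 lists.

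The 4 genes between them were close, and their order changed with the list. *SBF2* (526.2 kb) had 1.71 shared peaks per 100 kb, with 3.04 in replicate 1 and 1.71 in replicate 2. *KCNMA1* (768.2 kb) had 1.56 shared, 2.34 in replicate 1 and 1.82 in replicate 2. *ATXN1* (462.3 kb) had 1.51, 3.24 and 1.95, and *CAST* (813.3 kb) 1.48, 2.95 and 1.72. *SBF2* led this group in the shared list and *ATXN1* in each replicate, so these 4 densities cannot be ordered beyond the difference between lists.

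**Figure D2:**
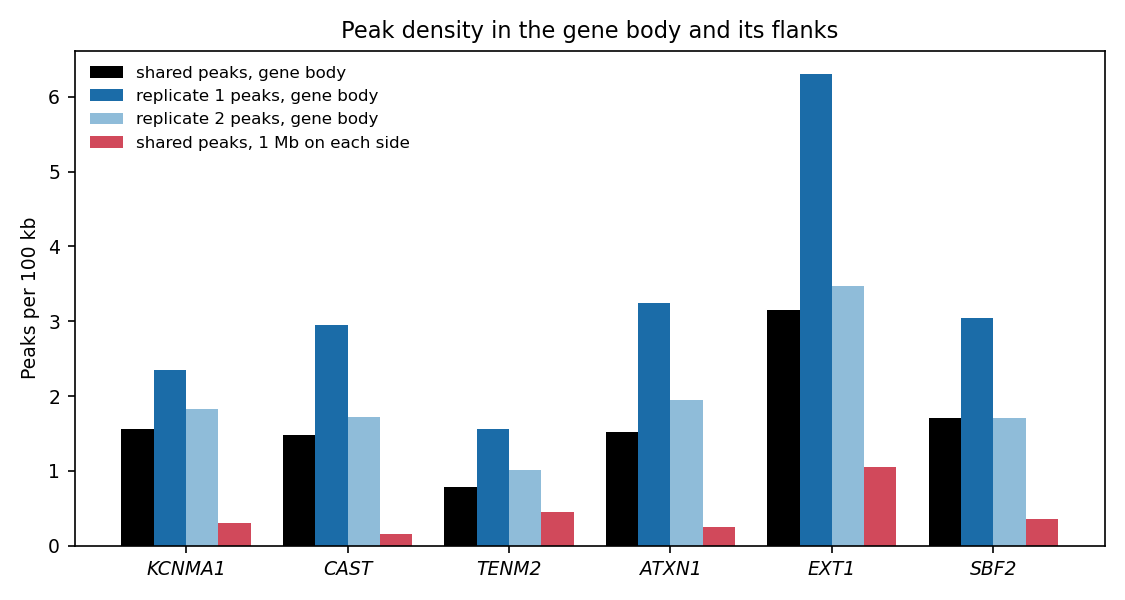
Peaks per 100 kb (vertical axis) inside each gene body for the shared list and each replicate list, and shared peaks per 100 kb in the 1 Mb on each side (red). *EXT1* is highest at 3.15 shared peaks per 100 kb and *TENM2* lowest at 0.778. In each of the 6, chosen by their shared peaks, the body exceeds its flanks.

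Density in the surroundings also differed between the genes. The 1 Mb on each side of *CAST* held 3 shared peaks, or 0.150 per 100 kb, and its body was 9.84 times as dense. For *ATXN1* the flanks held 5 and the ratio was 6.06. For *KCNMA1* they held 6, with a ratio of 5.21, and for *SBF2* they held 7, with a ratio of 4.89. The flanks of *EXT1* were the richest, with 21 shared peaks or 1.05 per 100 kb, so its ratio was 3.0 despite the highest density inside. *TENM2* stood least apart, with 9 peaks in its flanks and a ratio of 1.73. These ratios moved by over 1.5 times with the reference in all 6 genes. Against 0.5 Mb on each side they were 3.12 for *KCNMA1*, 4.92 for *CAST* and 3.785 for *ATXN1*. Against 5 Mb on each side the ratio of *EXT1* was 9.85. Against the rest of the chromosome outside gene-poor stretches they were 20.1 for *EXT1*, 9.15 for *SBF2*, 8.16 for *KCNMA1*, 5.16 for *CAST* and 2.70 for *TENM2*. *CAST* and *TENM2* lie on chromosome 5, which held 0.286 to 0.288 shared peaks per 100 kb outside each of them, against 0.157 to 0.191 on the chromosomes of the other 4. Every ratio stayed above 1, but the genes were chosen for shared peaks nearest to them, so this is no separate result.

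**Figure D3:**
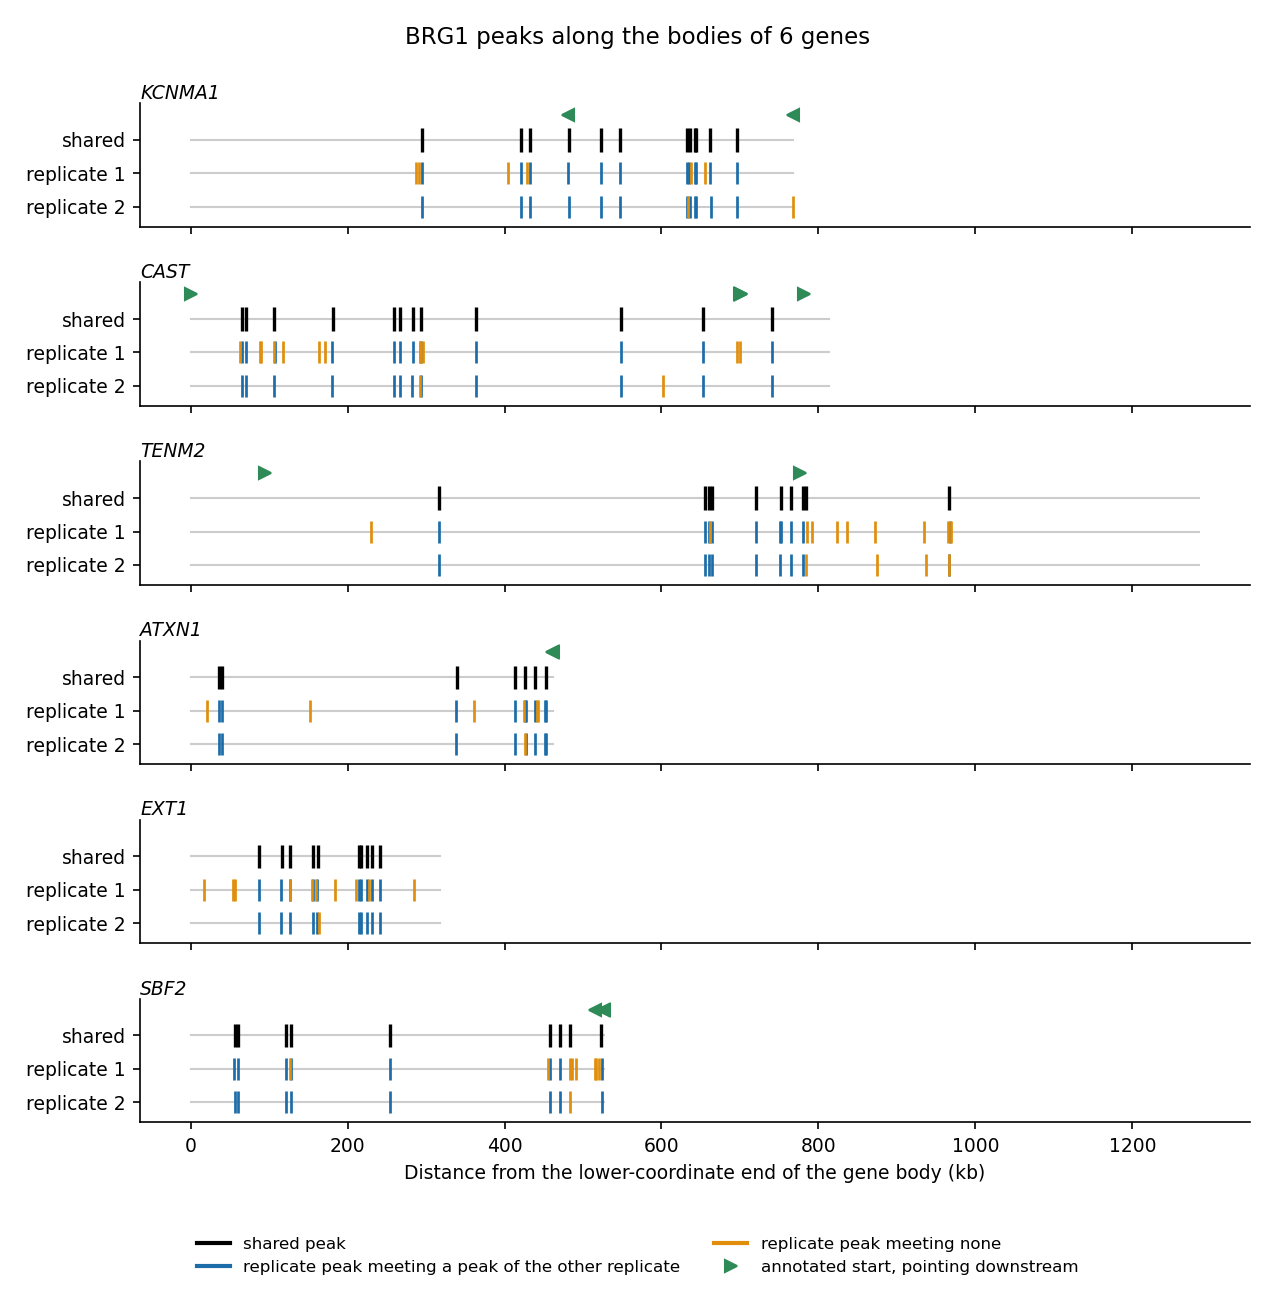
Position of each peak along the 6 gene bodies, in kb from the lower-coordinate end, with shared peaks (black) above the peaks of replicates 1 and 2. Replicate peaks are blue where they meet a peak of the other replicate and orange where they do not, and green arrows are RefSeq starts; *CAST* has 11 of its 12 shared peaks before its inner starts.

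Counted along the whole body, the 2 membrane protein genes showed opposite layouts. Each nonetheless had most of its shared peaks upstream of the inner of its 2 listed starts. Which of these starts 12Z cells use was not measured. *KCNMA1* is read from its higher-coordinate end, and 11 of its 12 shared peaks lay in the first 50% of the body. The last 293.7 kb, 38.2% of the gene, held no shared peak, 2 peaks of replicate 1 and none of replicate 2. Of the 12, 4 stood together within 12.4 kb at 77501752 to 77514108, more than 100 kb downstream of the outer start. The strongest of that group, at 77504553 to 77507830, had a fold of 3.92 over background and was also the widest peak of the gene at 3278 bp. The highest fold in *KCNMA1* was 4.04, at 77301349 to 77301658, where the replicate folds were 4.24 and 4.24. The peak over the inner start had a fold of 3.56, with 4.11 in replicate 1 and 4.19 in replicate 2, so it was not the strongest of the gene. The single peak nearest *KCNMA1* but outside it lay 151.7 kb away.

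In *TENM2*, 9 of 10 shared peaks lay in the last 50% of the body and 8 of them within a stretch from 167633048 to 167764253 on chromosome 5. That stretch spans the inner of its 2 listed starts. The nearest shared peak, at 167759282 to 167759871 with a fold of 3.37, lay 4.35 kb downstream of it. None was closer than 221.5 kb to the outer start. The closest trio, within 11.2 kb at 167633048 to 167644240, had folds of 3.59, 3.31 and 3.48. *TENM2* was also the gene with the narrowest range of folds, 3.20 to 3.59, and no shared peak of its 10 reached a −log10 q of 4. A stretch of 337.3 kb between its first and its second peak held no peak of either replicate. The 3 other peaks nearest to *TENM2* lay outside the body, 338.1 to 620.2 kb away, and the 10 inside meet the rule without them.

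*CAST* met the rule through a part of its annotated body that lies before most of its starts. RefSeq lists 5 starts for it, 1 at the lower-coordinate end and 4 in the last 112.6 kb. Between the first of all and the first of these 4 lie 700.0 kb, and 11 of the 12 shared peaks fall there. The same stretch holds *PCSK1*, a prohormone convertase gene, and the long non-coding RNA LOC101929710 overlaps the 11 peaks. After the inner starts lay 1 shared peak, at 96702492 to 96702978 on chromosome 5 (fold 3.33), which gives 0.888 per 100 kb against 1.57 before them. With the body begun at the first inner start, *CAST* had 2 nearest shared peaks and did not meet the rule, while *PCSK1* rose from 0 to 6 and *ELL2*, the neighbour at the lower-coordinate end, from 1 to 5. That setting was chosen after seeing the data. Which start 12Z cells use was not measured.

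The *CAST* peaks had the widest median spacing of the 6 genes, 68.7 kb, against 9.16 to 24.7 kb in the other 5. Joined within 10 kb, they formed groups of at most 2, as did those of *ATXN1* and *SBF2*. Folds ran from 3.28 to 3.86. The highest was at 96509665 to 96510157, with 3.82 in replicate 1 and 4.42 in replicate 2, and the next at 96324738 to 96325148, with a fold of 3.84. Between these 2 lay the longest stretch of *CAST* without a shared peak, 184.5 kb, which held no peak of either replicate.

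*SBF2* held its 9 shared peaks in 2 sets at opposite ends, with 1 between them. It is read from the higher-coordinate end, where 4 peaks lay in the first 25% of the body. The one at 10301197 to 10303057 on chromosome 11 was 0.780 kb from a listed start and had the lowest fold of all 60, 2.94, with 3.41 in replicate 1 and 3.44 in replicate 2. Near the other end, 4 peaks lay between 9834197 and 9907698. Of these, the peak at 9905246 to 9907698 had a fold of 4.31 and a −log10 q of 6.27, and its replicate folds were 4.82 and 5.09. *SBF2* thus had the widest range of folds of the 6 genes, and its strongest peak lay 386.5 kb from its nearest listed start.

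*ATXN1* had the fewest peaks inside, 7, and met the rule with 3 more just beyond its ends, 1.01 to 7.80 kb away. It is read from the higher-coordinate end, and 4 of the 7 lay in the first 25% of the body, within 50 kb of the start. The one at 16750429 to 16752624 on chromosome 6 had the highest fold of all 60 peaks, 4.50, and a −log10 q of 6.71. Its replicate folds were 4.73 and 4.44. A second strong peak lay near the far end, at 16338709 to 16339584, with a fold of 4.45 and replicate folds of 4.63 and 4.49. Between the 2 ends, 298.2 kb or 64.5% of the gene had no shared peak and 1 peak of replicate 1. The 3 peaks outside the body bring the count within 10 kb of *ATXN1* to 10.

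The peaks of *EXT1* lay in its middle, from 27.4% to 75.9% of the body, counted from the lower-coordinate end. They formed 4 groups when joined within 10 kb, the largest of 5 peaks over 27.1 kb at 118008650 to 118035711 on chromosome 8. This was the largest such group in any of the 6 genes. Its first peak had the highest fold of the gene, 3.81, with 3.70 in replicate 1 and 4.24 in replicate 2. The widest peak of all 60, 3612 bp, lay at 117954849 to 117958460 with a fold of 3.29. Shared peaks covered 4.63% of *EXT1*, against 1.46 to 2.60% of the other bodies. A small nucleolar RNA gene, *SNORD168*, lay under the peak at 117920715 to 117922243.

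**Figure D4:**
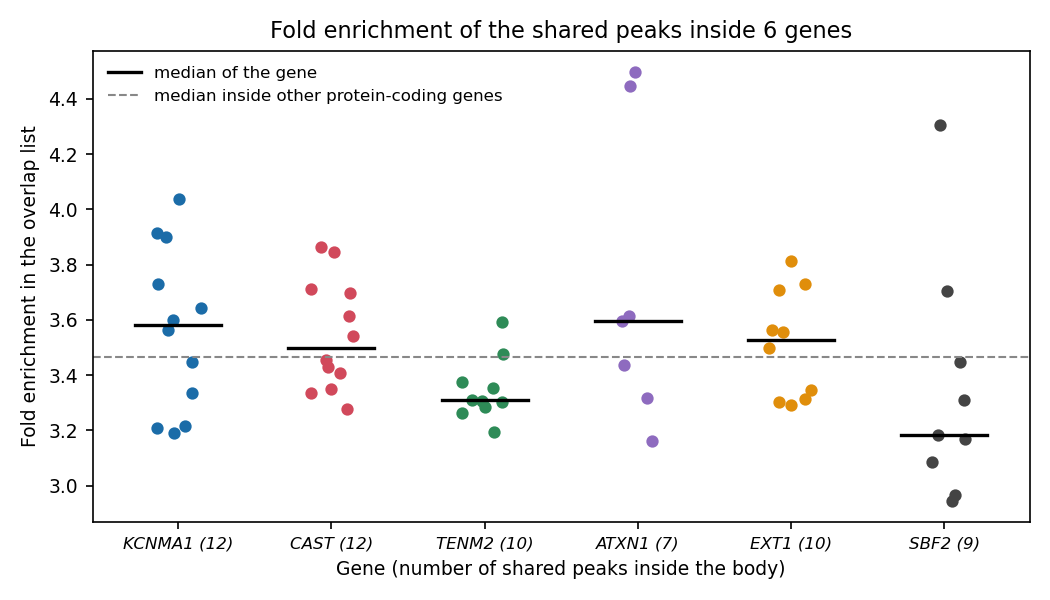
Fold enrichment over background in the overlap list (vertical axis) for each shared peak inside the 6 genes, with the median of each gene (black bar) and the median inside other protein-coding genes (dashed line, 3.47). *ATXN1* and *SBF2* hold the 3 highest values, 4.31 to 4.50, and *TENM2* has no value above 3.59.

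As a set, the 60 peaks were of ordinary strength and somewhat wide. Their median fold was 3.44, against 3.47 for the 1827 shared peaks inside other protein-coding genes, and their median width 1276 bp against 1005 bp. The authors' −log10 q was at least 5 for 4 of the 60, or 6.67%, against 13.7% of those inside other genes. The 4 lie in *ATXN1* (2), *SBF2* (1) and *KCNMA1* (1). None in *CAST*, *TENM2* or *EXT1* reached it. The high counts of these genes therefore rest on many peaks of modest significance. Such significance was not particular to them, with a median −log10 q of 3.2 against 3.38 inside other protein-coding genes.

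Peaks of the replicates were matched inside the 6 genes. Of the 113 replicate 1 peaks inside the 6 genes, 54.0% (61; 95% Wilson interval 44.8 to 62.9%) met a replicate 2 peak by 1 bp or more. Of the 70 replicate 2 peaks, 84.3% (59; interval 74.0 to 91.0%) met a replicate 1 peak. Where 50% of both peaks had to overlap, these shares were 21.2% and 34.3%. Inside other protein-coding genes the shares by 1 bp were 30.8% of 5691 and 73.4% of 2437. These intervals cover counting error over peaks only, and since shared peaks chose the 6 genes, a higher share in them is no separate result. For replicate 1 the share was lowest, 50%, in *CAST* (12 of 24), *TENM2* and *EXT1* (10 of 20 each) and *SBF2* (8 of 16), and highest in *KCNMA1*, at 66.7%. For replicate 2 it ran from 69.2% in *TENM2* to 90.9% in *EXT1*. Inside other protein-coding genes, replicate peaks met each other at 93.8% of 1827 shared peaks. At 58 of the 60 shared peaks in the 6 genes, 96.7%, a replicate 1 peak and a replicate 2 peak met each other. At the other 2, 1 in *TENM2* (167763240 to 167764253) and 1 in *SBF2* (10261304 to 10262885), both replicates had a peak under the shared one but these did not meet. A shared peak lay over 73 of the 113 replicate 1 peaks and 65 of the 70 replicate 2 peaks. Inside other protein-coding genes these counts were 1996 of 5691 and 1935 of 2437. Since shared peaks chose the 6 genes, this too is no separate result. Inside the 6 genes, replicate 1 peaks that met none of the other replicate had a median fold of 3.56, against 3.86 for those that did. This was not particular to them, with 3.56 against 3.82 inside other protein-coding genes.

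Genes with a pattern most like these were found by the same count. Outside gene-poor stretches, 14 other protein-coding genes had 9 or more nearest shared peaks. The 6 with most of them inside the body were *THSD4*, an extracellular matrix protein gene, with 10, *AOPEP*, an aminopeptidase gene, and *DST*, which encodes a plakin of hemidesmosomes, with 9 each, and *SMAD3*, *TRIO* and *ARHGAP26* with 8 each. *SMAD3*, the TGF-beta effector, had 6.17 shared peaks per 100 kb in a body of 129.6 kb, denser than any of the 6 members. *TRIO* and *ARHGAP26* had 2.18 and 1.74, *AOPEP* 2.12, *DST* 1.81 and *THSD4* 1.46. These densities overlap those of the members, so the 6 are a selection from a continuous range. Among the 5 of the 14 nearest in length to each member, inside counts ran from 7 to 10 for *KCNMA1*, *CAST* and *TENM2*, from 7 to 9 for *ATXN1* and *SBF2* and from 3 to 9 for *EXT1*. Just below the threshold, with 8 nearest peaks, *ASAP1* and *MICAL2* had 6 inside the body, *NREP* 5, *SEMA3C* 4 and *SMURF2* 3. The other 2 of the 7 genes with 8, *DKK1* and *NT5C1B-RDH14*, had 1 and 0 inside and were named after their values were seen. *SBF2*, just above the threshold with 9, had all 9 inside. Counting only shared peaks with a −log10 q of at least 2, *SBF2* had 8 and did not meet the rule, while the counts of the other 5 members did not change.

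Partners and paralogs of the 6 gene products carried peaks about as often as genes at large. Of 83 such genes in 6 lists, 7 had a shared peak inside the body, against 6.11% of all protein-coding genes, and none had more than 2. Among 11 BK channel partners and related channels it was *KCNU1*, with 1, and among 16 calpain system genes *CAPN2*, the catalytic subunit of m-calpain, with 1. Of 9 teneurins, latrophilins and their FLRT ligands, *TENM3* and *ADGRL2* had 2 each. In *TENM3*, as long as *TENM2* at 1355.4 kb, this gave 0.148 shared peaks per 100 kb, against 0.778 in *TENM2*. Replicate 1 alone had 15 peaks inside *TENM3* and replicate 2 had 5. Of 24 heparan sulfate synthesis genes *NDST1*, an N-deacetylase and sulfotransferase, had 2, while *EXT2* had none in any of the 3 lists. Of 16 myotubularins and partners *MTMR3* and *MTMR7* had 1 each. *MTMR2*, the partner of *SBF2*, had no shared peak and 1 peak of replicate 1. None of the 7 ataxin-1 partners, *CIC* included, had a shared peak inside. Peaks do not measure expression, so the epithelial label of the line could not be checked directly; 1 of 6 epithelial markers (*KRT8*) and 1 of 5 mesenchymal or stromal markers (*THY1*) held a shared peak.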

How the data were processed

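BRG1 ChIP-seq peaks of 2 libraries from 12Z cells were used as deposited; the input was not analysed here as peaks of its own. The submitters' processing notes list MACS2, Bowtie2, Picard, SAMtools, bedtools, Trim Galore and cutadapt, with build GRCh38.p12. Their settings, and whether the overlap list was called on pooled reads, were not given in the sources used here. As deposited, the 3 lists of broad peaks had 17399 (replicate 1), 10157 (replicate 2) and 6343 (overlap) rows. In each, the authors' fold enrichment over background is a ratio, and the authors' −log10 q gives the significance of the peak. Both were used only to describe peaks of one list. No list gives read counts, so library depth is unknown.

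Peaks on chromosomes 1 to 22 and X were counted inside a gene when they overlapped its RefSeq body (GRCh38.p14) by 1 bp, and were assigned to the nearest protein-coding body, to each in case of a tie. Gene coordinates are not printed, peak coordinates count from 1, and exons were not assigned. A gene was set aside as gene-poor when more than 50% of its nearest peaks lay in stretches of 1 Mb without a coding gene. Genes and lists were chosen with earlier results of these data known. The named genes are the 6 members, the 6 other genes meeting the rule with most peaks inside, 5 genes with 8 nearest peaks, and partner genes with a peak. Motifs were chosen after seeing the data. Counting was tested on simulated data. Python 3.11.15, numpy 2.4.6, pandas 2.3.3, scipy 1.17.1 and matplotlib 3.10.9 were used.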

Additional observations from a re-analysis of the deposited data

How the results depend on the processing

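The 60 shared peaks and their median of 1.54 per 100 kb became 4 and 0.0651 with a −log10 q of 5 or more. They became 5 and 0.0778 where a peak of each replicate had to overlap the shared peak by 50% of both. The median width was 1276 bp for these shared peaks, against 489 and 370.5 bp for the peaks of replicates 1 and 2 inside the same genes. Without replicate 1 or without replicate 2, the counts were 70 to 113 peaks and the medians 1.77 to 3.0 per 100 kb. The replicate shares of 54.0% and 84.3% became 21.2% and 34.3% with 50% of both peaks, and 68.5% and 92.7% with a −log10 q of 2 or more. The 56 genes meeting the rule became 17 within 100 kb, and with 1 replicate left out they were 97 to 234. For none of these was the cause tested. Midpoints, bodies widened by 10 kb, the tie rule and a −log10 q of 2 kept these counts within 1.5 times. Of the values for single genes, 28 moved by more and 45 did not. *CAST* begun at its inner starts, added after seeing the data, held 1 shared peak. Unknown depth limits what a missing peak shows.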

Other observations

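Position along the body was also set beside that in other long genes. In the 5 members with listed starts, 60% of 50 shared peaks lay in the first 50% of the body, against 52.6% of 342 in 162 other genes at least as long as *EXT1*. The first 25% held 38.0% and 24.6%. Within 10 kb of a listed start of the same gene lay 10.0% and 10.2%. No test was run, and the members differed among themselves, from 11 of 12 in the first 50% for *KCNMA1* to 1 of 10 for *TENM2*. *CAST* added 9 of its 12, counted from the end of the body that lies far before most of its starts. Which starts 12Z cells use was not measured for any member.

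Of the 60 shared peaks, 18 lay over another annotated gene. Of these, 11 lay over LOC101929710 inside *CAST* and 3 over LOC101928008 inside *SBF2*. The others were 2 in *KCNMA1*, 1 in *TENM2* and 1 in *EXT1*. The same share inside other protein-coding genes is not given here, so whether 18 of 60 is unusual cannot be said. The *TENM2* peak, over *TENM2-AS3* at 167944088 to 167947683 on chromosome 5, covered 3 peaks of replicate 1 and 2 of replicate 2.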
